A study of Homo sapiens with 12 samples.

Results

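ZFP36, ZFP36L1, ZFP36L2, BTG1, BTG2, BTG3, TOB1 and TOB2 encode adaptor proteins that bring mRNAs to the deadenylation machinery. They were taken by gene symbol from the table of raw read counts, where each symbol named 1 row, and they make up 8 of the 20771 genes in that table. All 8 passed the filter on low counts, as did 16515 genes in all. The RNA came from a pair of Ewing sarcoma lines, EW8-RRM1-KO and TC71-RRM1-KO. In both, CRISPR/Cas9 disrupted endogenous RRM1, the catalytic subunit of ribonucleotide reductase, and a lentiviral, codon-optimized RRM1 transgene under doxycycline control took its place. In each of the 2 lines, 3 libraries were made from cells in doxycycline (0 h) and 3 from cells without doxycycline for 48 h, which gave 12 libraries in 4 groups.

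All 4 groups therefore carried the knockout and the transgene, and no library of parental cells was analysed here. Because the knockout cells were cloned from single cells, a line and its clone cannot be told apart. Counts on genes ranged from 18468485 to 35698991 per library, with the deepest library in the 0 h group of EW8. RRM1 itself rose from 9.52 ± 0.148 to 70.2 ± 5.54 CPM in EW8 (counts scaled to the normalized library total, mean ± SD, n = 3) and from 16.2 ± 0.980 to 25.4 ± 1.19 CPM in TC71. Whether these reads came from the endogenous sequence, the codon-optimized transgene or both was not tested, so they do not check the labels. All 8 markers of Ewing sarcoma lines were in the table, with CD99 at 4708 to 11244 counts and PRKCB at 5955 to 13332. The lowest of the 8 was CCK, at 7 to 18 counts in EW8 and 21 to 86 in TC71, and NKX2-2 followed with 128 to 311 and 230 to 578. Of 8 markers of other cell types, 3 were in the table. PTPRC and CDH5 reached at most 5 and 6 counts in any library, and EPCAM ranged from 2 to 9 counts in EW8 and from 14 to 43 in TC71.

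Most mRNAs decay by losing their poly(A) tail first. The CCR4-NOT complex removes much of the tail, after which decapping enzymes and XRN1, or the RNA exosome, degrade the message. The ZFP36 proteins hold a pair of zinc fingers that bind AU-rich elements in 3′ untranslated regions, and they recruit CCR4-NOT through the scaffold CNOT1. The MAP kinase p38, acting through its substrate kinase MK2, phosphorylates ZFP36 proteins, which then bind 14-3-3 proteins and lose decay activity. The BTG and TOB proteins share a domain that binds the deadenylases CNOT7 and CNOT8. TOB1 and TOB2 also bind the poly(A)-binding protein PABPC1. Many of these genes are known as early response or antiproliferative genes, and BTG2 is a known target gene of p53.

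The ZFP36 proteins bind an AU-rich nonamer, and their own mRNAs carry it. In the canonical transcripts of GENCODE release 44 (GRCh38, called hg38 in the authors' mapping), each of the 3 ZFP36 family mRNAs held exactly 1 TTATTTATT in its 3′ untranslated region. The sites are shown because they place each family member among the candidate targets of its own family. Each is printed on the transcript strand with 10 reference bases on either side and the nonamer in capitals.

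ZFP36: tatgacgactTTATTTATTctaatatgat

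ZFP36L1: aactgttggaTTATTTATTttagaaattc

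ZFP36L2: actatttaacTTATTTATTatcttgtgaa

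The nonamers lie at chr19:39409206-39409214 (+ strand) in ZFP36, at chr14:68788087-68788095 (− strand) in ZFP36L1 and at chr2:43223458-43223466 (− strand) in ZFP36L2. The untranslated regions that hold them measure 708, 1871 and 1917 bases, respectively. None of the 5 BTG and TOB mRNAs held the nonamer, although their 3′ untranslated regions carried between 2 and 5 copies of the shorter pentamer ATTTA. For comparison, 1235 of 12820 genes tested with an annotated 3′ untranslated region held the nonamer, which is 9.6%. A match of these letters is a description of the sequence and not a measured binding site.

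Removal of doxycycline was followed by higher mRNA levels of 7 of the 8 decay factors in both lines, while ZFP36L2 fell in both. BTG2 rose most, 10.8-fold in EW8 and 3.79-fold in TC71. ZFP36 followed with 6.60-fold and 3.46-fold increases. The changes were larger in EW8 for all 8 genes, including the fall of ZFP36L2. In RNA from a whole culture, a change in the level per cell and a change in the share of cells that express a gene cannot be told apart.

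All 8 members passed an adjusted p of 0.05 in each line by the edgeR quasi-likelihood test. Across all genes tested, this criterion called 37.0% higher and 31.6% lower in EW8. The shares in TC71 were 22.9% higher and 19.2% lower. A shared direction was less common, with 17.6% of genes higher in both lines and 14.3% lower in both. The criterion that also asks for a fold above 2 was passed by 5 members in EW8 (ZFP36, ZFP36L1, BTG1, BTG2 and TOB2), against 13.9% of all genes upregulated that way. In TC71, it was passed by 2 members (ZFP36 and BTG2), against 3.26% of all genes. The median log2 fold change of the 8 members was 1.41 in EW8 and 0.50 in TC71, whereas the median over all genes was 0.03 and 0.00. Lower levels past both thresholds, which no member showed, were found for 3.35% of genes in EW8 and 0.854% in TC71. The CPM of the 0 h and 48 h libraries did not overlap for any member in either line. Among all genes, 37.9% were higher and 33.2% lower in this sense in EW8, and 25.9% higher and 23.7% lower in TC71. With 8 members, these counts describe the members and were not tested as a group.

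**Figure D1:**
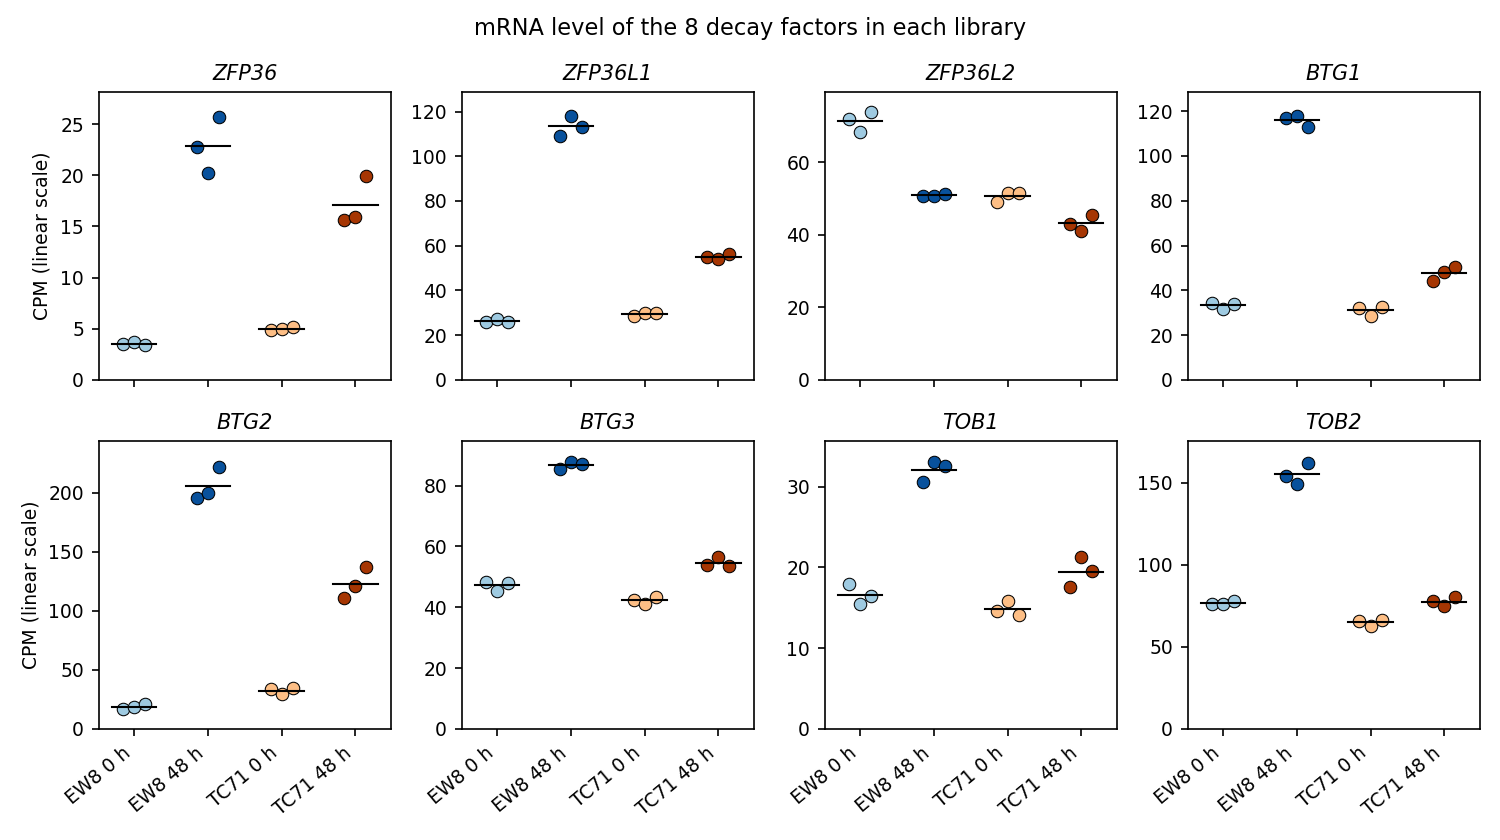
Normalized level (CPM, linear scale from 0) of each decay factor in each of the 12 libraries, with 1 panel per gene, 1 point per library and a line at the mean of each group of 3. In every panel the 48 h points of a line lie clear of its 0 h points, above them for 7 genes and below them for ZFP36L2.

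ZFP36 (tristetraprolin), the founding member of the zinc finger family, was the least abundant of the 8 genes at 0 h on the CPM per kilobase scale used below. Its level was 3.46, 3.67 and 3.36 CPM in the EW8 libraries at 0 h and 22.8, 20.2 and 25.7 CPM at 48 h. In TC71, it was 4.88, 4.95 and 5.13 CPM at 0 h and 15.6, 15.9 and 19.9 CPM at 48 h. The groups did not overlap in either line, and the third 48 h library was the highest in both lines. The log2 fold change was 2.72 (SE 0.12, adjusted p = 2.40e-20) in EW8 and 1.79 (SE 0.11, adjusted p = 4.25e-15) in TC71, both by edgeR. The raw counts behind the 0 h values were low, from 64 to 131 per library. ZFP36 spans chr19:39406847-39409412 (+ strand), and no other annotated gene overlaps its exons.

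ZFP36L1 encodes a paralog that also destabilizes AU-rich mRNAs. Its level was 25.9, 27.3 and 25.8 CPM in EW8 at 0 h and 109, 118 and 113 CPM at 48 h. The TC71 libraries held 28.4, 29.7 and 29.8 CPM at 0 h and 54.9, 54.0 and 56.3 CPM at 48 h. The 48 h level in EW8 was thus clear of that in TC71 as well, even though EW8 started slightly lower. By edgeR, ZFP36L1 rose by 2.11 on the log2 scale in EW8 (SE 0.05, adjusted p = 3.45e-27) and by 0.91 in TC71 (SE 0.05, adjusted p = 8.04e-16). The TC71 increase was 1.88-fold and so did not reach the fold threshold. ZFP36L1 spans chr14:68787660-68796253 (− strand). A long noncoding RNA gene, ENSG00000289626, overlaps its exons on the same strand, and reads from the shared bases could not be separated here.

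ZFP36L2, the third paralog, moved the other way. Its level was 71.9, 68.4 and 74.0 CPM in EW8 at 0 h and 50.7, 50.7 and 51.3 CPM at 48 h. The corresponding TC71 values were 49.1, 51.6 and 51.6 CPM at 0 h and 43.1, 41.0 and 45.6 CPM at 48 h. The groups of a line did not overlap, but the EW8 libraries at 48 h overlapped the TC71 libraries at 0 h. The log2 fold change was -0.49 (SE 0.05, adjusted p = 2.68e-10) in EW8 and -0.23 (SE 0.05, adjusted p = 5.41e-04) in TC71 by edgeR. These are falls of 1.41-fold and 1.17-fold, which do not reach the fold threshold of 2. ZFP36L2 (chr2:43222402-43226606, − strand) shares exonic bases with ENSG00000287387, a long noncoding RNA gene on the opposite strand.

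The opposite changes altered the make-up of the ZFP36 family. To compare levels between genes, CPM were divided by the length of the union of each gene's annotated exons in kilobases. On this scale, ZFP36L2 made up 76.8% ± 1.3 (SD, n = 3) of the summed level of the family in EW8 at 0 h and 32.1% ± 0.7 at 48 h. In TC71, its share was 66.1% ± 0.2 at 0 h and 40.5% ± 1.0 at 48 h. ZFP36 went from 7.0% ± 0.5 to 27.0% ± 2.6 in EW8 and from 12.1% ± 0.2 to 30.0% ± 2.2 in TC71. ZFP36L1 took the largest share in EW8 at 48 h, 40.9% ± 2.1, up from 16.2% ± 0.9. In TC71, the share of ZFP36L1 was 21.8% at 0 h and 29.5% ± 1.4 at 48 h, below that of ZFP36L2 in both groups. The summed level of the family rose from 25.2 ± 0.566 to 42.9 ± 1.25 CPM per kilobase in EW8 and from 20.8 ± 0.556 to 28.9 ± 1.96 in TC71. The share of ZFP36L1 depended on the length used, because its exon union of 6466 bases is far longer than its canonical transcript of 3017 bases. With canonical transcript lengths, chosen after seeing the data, ZFP36L1 made up 29.1% and 58.3% of the family in EW8 at 0 h and 48 h, and 36.9% and 46.0% in TC71. It was then the leading paralog at 48 h in both lines.

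**Figure D2:**
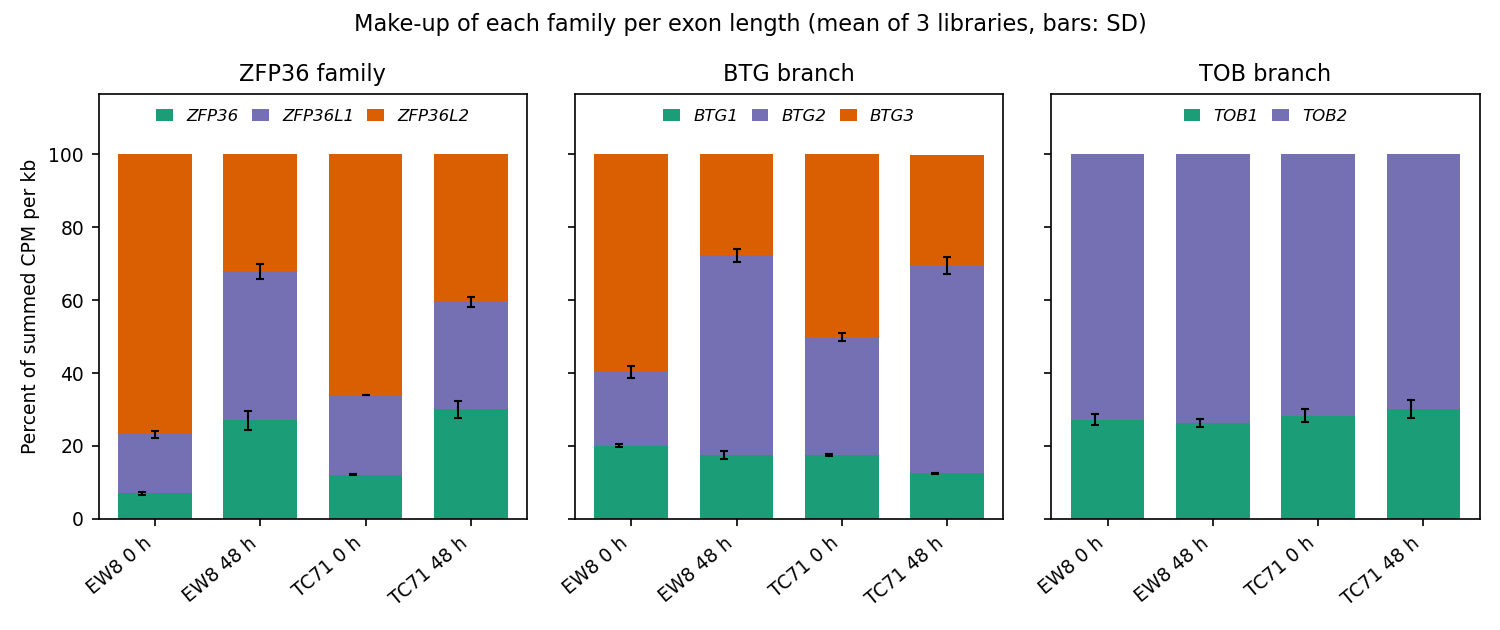
Share of each gene in the summed CPM per kilobase of exon of its family, as the mean of 3 libraries in each group, with SD bars at the segment borders. The ZFP36L2 segment shrinks from 76.8% to 32.1% in EW8 and from 66.1% to 40.5% in TC71, and the BTG2 segment grows in both lines, whereas the TOB1 segment stays between 26.3% and 30.2%.

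BTG2, an antiproliferative adaptor and the most strongly changed member, reached the highest level per kilobase of the 8 genes at 48 h in both lines. Its level was 17.2, 18.8 and 20.7 CPM in EW8 at 0 h and 196, 200 and 222 CPM at 48 h. The TC71 levels were 33.5, 29.2 and 34.5 CPM at 0 h and 111, 121 and 137 CPM at 48 h. TC71 was thus higher before doxycycline removal and lower after it, with no overlap between any of the 4 groups. The log2 fold change by edgeR was 3.43 (SE 0.09, adjusted p = 9.14e-15) in EW8 and 1.92 (SE 0.08, adjusted p = 5.56e-11) in TC71. Ranked by fold change among all genes tested, BTG2 was number 198 in EW8 and number 140 in TC71. On the CPM per kilobase scale, its level lay above that of 63.9% of the 15991 genes with an annotated length in EW8 at 0 h and above that of 97.3% at 48 h. BTG2 spans chr1:203305491-203309602 (+ strand) with no other annotated gene over its exons.

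BTG1, the closest relative of BTG2, rose more in EW8 than in TC71. Its level there was 34.2, 31.8 and 33.9 CPM at 0 h and 117, 118 and 113 CPM at 48 h. In TC71, it was 32.3, 28.6 and 32.6 CPM at 0 h and 44.0, 48.3 and 50.5 CPM at 48 h. The 0 h libraries of the lines overlapped, and the 48 h libraries were far apart. The log2 fold change by edgeR was 1.80 (SE 0.06, adjusted p = 2.55e-24) in EW8 and 0.61 (SE 0.06, adjusted p = 2.06e-10) in TC71. Exons of BTG1-DT on the opposite strand and of LINC01619 on the same strand overlap those of BTG1 (chr12:92140278-92145846, − strand).

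BTG3, a further member of the BTG branch, was the most abundant of the 8 genes per kilobase at 0 h, with 20.5 ± 0.704 CPM per kilobase in EW8 and 18.3 ± 0.488 in TC71. In EW8, its libraries overlapped those of ZFP36L2, the next gene in the order, on the exon scale but not with canonical transcript lengths. Its CPM ran from 45.3 to 48.2 at 0 h and from 85.6 to 87.8 at 48 h in EW8. In TC71, they ran from 41.0 to 43.3 at 0 h and from 53.4 to 56.4 at 48 h. The log2 fold change by edgeR was 0.88 (SE 0.05, adjusted p = 2.31e-17) and 0.37 (SE 0.05, adjusted p = 2.47e-07), respectively. BTG3-AS1 overlaps its exons (chr21:17593653-17612945, − strand) on the opposite strand.

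Within the BTG branch, BTG2 displaced BTG3 as the leading mRNA. Per kilobase of exon, BTG2 made up 20.1% ± 1.6 of the branch in EW8 at 0 h and 54.8% ± 1.8 at 48 h. In TC71, the shares were 32.2% ± 1.1 and 57.0% ± 2.3. BTG3 went from 59.9% ± 1.1 to 27.7% ± 0.8 in EW8 and from 50.3% ± 1.4 to 30.4% ± 2.3 in TC71, even though its own mRNA level had risen. With canonical transcript lengths, BTG2 again led at 48 h, with 46.5% in EW8 and 47.9% in TC71. The summed level of the branch went from 34.2 ± 1.13 to 136 ± 4.65 CPM per kilobase in EW8 and from 36.5 ± 1.93 to 78.1 ± 5.26 in TC71.

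TOB1 and TOB2, which carry a longer tail that binds PABPC1, both rose in both lines. TOB1 was at 17.9, 15.5 and 16.5 CPM in EW8 at 0 h and at 30.6, 33.0 and 32.5 CPM at 48 h, a log2 fold change of 0.94 (SE 0.07, edgeR adjusted p = 2.05e-13). In TC71, TOB1 was at 14.6, 15.8 and 14.1 CPM at 0 h and at 17.6, 21.3 and 19.5 CPM at 48 h, a log2 fold change of 0.40 (SE 0.08, edgeR adjusted p = 8.04e-05). The TC71 libraries at 48 h overlapped the EW8 libraries at 0 h. TOB1-AS1 overlaps TOB1 exons (chr17:50862223-50867978, − strand) on the opposite strand.

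TOB2 was at 75.9, 76.0 and 78.0 CPM in EW8 at 0 h and at 154, 149 and 162 CPM at 48 h. In TC71, it was at 65.7, 62.7 and 66.3 CPM at 0 h and at 77.6, 74.8 and 80.3 CPM at 48 h. The TC71 level at 48 h only reached the EW8 level at 0 h, with which it overlapped. By edgeR, TOB2 rose by 1.02 in EW8 (SE 0.05, adjusted p = 7.20e-20) and by 0.26 in TC71 (SE 0.05, adjusted p = 3.62e-05) on the log2 scale. The EW8 change was 2.02-fold, and it fell below a fold of 2 when any 0 h library of EW8, or the third 48 h library of EW8, was left out. No other annotated gene overlaps the exons of TOB2 (chr22:41433494-41446801, − strand).

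TOB1 kept a steady share of the summed TOB level, 27.2% ± 1.5 and 26.3% ± 1.2 in EW8 and 28.3% ± 1.8 and 30.2% ± 2.5 in TC71 at 0 h and 48 h. Over all 8 genes, the summed level went from 83.6 ± 2.15 to 228 ± 7.35 CPM per kilobase in EW8 and from 78.1 ± 1.96 to 133 ± 7.52 in TC71.

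The lines were then compared in their response. The difference of the log2 fold changes, EW8 minus TC71, passed an adjusted p of 0.05 for all 8 genes by edgeR, positive for 7 and negative for ZFP36L2. Over all genes, 25.7% were called with a positive difference and 22.4% with a negative one. The difference was 1.51 (SE 0.13, adjusted p = 7.72e-08) for BTG2, 1.20 (SE 0.07, adjusted p = 5.86e-15) for ZFP36L1 and 1.19 (SE 0.08, adjusted p = 7.91e-14) for BTG1. These 3 also passed the fold threshold, against 7.28% of all genes with a positive difference and 0.981% with a negative one. ZFP36 joined them when the second 48 h library of EW8 or the third 48 h library of TC71 was left out. Its difference was 0.93 (SE 0.17, adjusted p = 2.13e-05), and for ZFP36L2 it was -0.26 (SE 0.07, adjusted p = 0.00341). As a share of the EW8 log2 change, the TC71 change ran from 25.2% for TOB2 to 65.7% for ZFP36, with 56.0% for BTG2 and 33.9% for BTG1. ZFP36 and BTG2 had the highest such shares and TOB2 the lowest, without a test of these shares against each other.

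**Figure D3:**
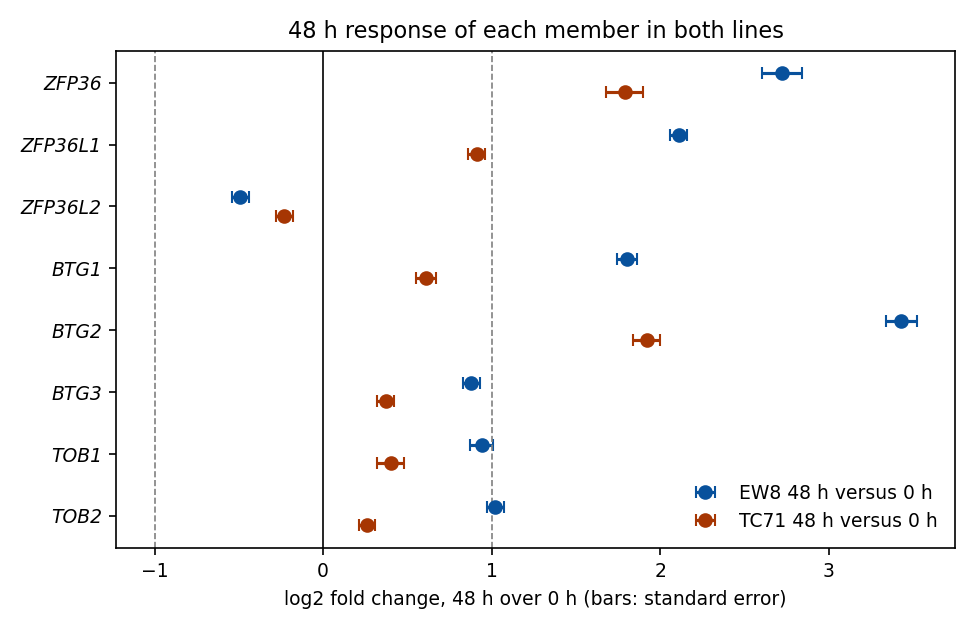
Log2 fold change at 48 h over 0 h for each decay factor in EW8 and TC71, with standard errors from the edgeR fit and dashed lines at a fold of 2 in each direction. Every EW8 point lies farther from 0 than the TC71 point of the same gene, from 3.43 against 1.92 for BTG2 to -0.49 against -0.23 for ZFP36L2.

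At 0 h, 3 members were lower and 3 higher in EW8 than in TC71. These comparisons share the 0 h libraries with the responses above and are not independent of them. EW8 was lower than TC71 in BTG2 (log2 difference -0.77, SE 0.10, adjusted p = 5.52e-06), ZFP36 (-0.52, SE 0.14, adjusted p = 0.00181) and ZFP36L1 (-0.16, SE 0.06, adjusted p = 0.0169). It was higher in ZFP36L2 (0.50, SE 0.05, adjusted p = 1.64e-10), TOB2 (0.24, SE 0.05, adjusted p = 4.38e-05) and BTG3 (0.16, SE 0.05, adjusted p = 0.00591). For BTG1 (0.10, adjusted p = 0.170) and TOB1 (0.17, adjusted p = 0.0631), the libraries of the lines overlapped and the test was not passed. The other 6 members did not overlap. The BTG3 difference was 0.03 (adjusted p = 0.626) with total counts in place of TMM factors, which moved the median of all genes by -0.13 in this comparison. Across all genes, 32.8% were called higher and 32.9% lower in EW8 by the adjusted p, and the libraries of 34.0% were higher and of 34.3% lower without overlap. No member passed the fold threshold as well, by edgeR or DESeq2, where 4.77% of all genes were higher and 11.9% lower by edgeR, whereas 7 of the 8 were below an unadjusted p of 0.05. The ZFP36L1 call rested on single libraries, since the adjusted p was 0.0685 without the first and 0.0821 without the third EW8 library, and 0.0627 without the third TC71 library.

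Per kilobase of exon, the order of the 8 genes changed after doxycycline removal. In EW8 at 0 h, BTG3 (20.5 CPM per kilobase), ZFP36L2 (19.3) and TOB2 (17.6) stood well above BTG2 and BTG1 (6.86 each), TOB1 (6.59), ZFP36L1 (4.08) and ZFP36 (1.77). BTG2, BTG1 and TOB1 overlapped with each other. At 48 h in EW8, BTG2 led with 74.7 CPM per kilobase, ahead of BTG3 (37.7) and TOB2 (35.7), whose libraries overlapped. BTG1 (23.9), ZFP36L1 (17.6), ZFP36L2 (13.8), TOB1 (12.7) and ZFP36 (11.6) followed. In TC71 at 48 h, BTG2 again led with 44.7 CPM per kilobase, ahead of BTG3 with 23.7 and TOB2 with 17.9. Several of these places depended on the length used. With canonical transcript lengths, ZFP36L1 was at 8.73 CPM per kilobase in EW8 at 0 h, number 4 of the 8 genes in place of 7, and at 37.6 at 48 h, number 3 in place of 5. BTG3 was then at 33.5 CPM per kilobase in EW8 at 0 h and at 61.6 at 48 h, clear of ZFP36L2 (19.3) and TOB2 (35.7). BTG2 became number 7 in place of 4 in EW8 at 0 h. In TC71 at 48 h, ZFP36L1 (18.3) then overlapped TOB2 (17.9). BTG2 led at 48 h, and BTG3 at 0 h, in both lines with either length.

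Of 12 genes for the CCR4-NOT complex, which the adaptors recruit, 4 rose and 5 fell in EW8 at an adjusted p of 0.05, with a median log2 fold change of -0.07. In TC71, 2 rose and 3 fell, with a median of -0.01. By the adjusted p alone, 37.0% of all genes rose and 31.6% fell in EW8, and 22.9% and 19.2% did in TC71. Past the fold threshold as well were 0 of the 12 in either line by edgeR, where 13.9% of all genes were higher and 3.35% lower in EW8, and 3.26% and 0.854% in TC71. By DESeq2, 1 was lower past both thresholds in EW8, namely TNKS1BP1, which edgeR also called with DESeq2 size factors, with either other count filter and with the EW8 groups alone. The largest changes in EW8 were those of TNKS1BP1 (-0.99, SE 0.06, edgeR adjusted p = 2.73e-17), a protein associated with the complex, CNOT4 (0.86, SE 0.06) and CNOT3 (0.72, SE 0.05). CNOT7, a deadenylase that BTG and TOB proteins bind, had a log2 fold change of -0.57 (SE 0.05, edgeR adjusted p = 4.79e-13) in EW8 and of -0.28 (SE 0.05, edgeR adjusted p = 1.06e-05) in TC71. CNOT8, the other deadenylase that they bind, was not called in either line. Its log2 fold change was 0.05 (SE 0.05, edgeR adjusted p = 0.396) in EW8 and 0.10 (SE 0.05, edgeR adjusted p = 0.120) in TC71.

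For the lists of decay genes, the shares of all genes to compare are those given above, 37.0% higher and 31.6% lower in EW8 and 22.9% and 19.2% in TC71. Of 10 genes for PAN2-PAN3, PARN and the poly(A)-binding proteins, 6 were lower and 2 higher in EW8, with a median log2 fold change of -0.40. TC71 had 6 of them lower and 1 higher. PABPC1, which binds the poly(A) tail and is a partner of TOB proteins, changed by -0.59 (SE 0.03, edgeR adjusted p = 6.20e-18) in EW8 and by -0.34 (SE 0.03, edgeR adjusted p = 8.54e-11) in TC71. PABPC3 changed by -0.68 (SE 0.14) and -0.34 (SE 0.12), but it is an intronless copy of PABPC1 and its counts are uncertain. Of 20 decapping and 5′ decay factors, 7 rose and 12 fell in EW8 (median -0.19), among them the 5′ exonuclease XRN1 (0.71, SE 0.05) and the decapping cofactor subunit LSM2 (-0.98, SE 0.06). In TC71, 5 of these genes rose and 5 fell. Of 17 exosome and SKI genes, 10 were lower and 3 higher in EW8 (median -0.19), with DIS3L at -0.36 (SE 0.04) and DIS3 at 0.36 (SE 0.05), while TC71 had 3 lower and 1 higher. Among 7 microRNA effector genes, 4 rose and 2 fell in EW8 (median 0.46), with TNRC6C at 0.55 (SE 0.06) and AGO1 at -0.49 (SE 0.04). In TC71, 3 of them rose and 2 fell. None of the genes in these 4 lists passed the fold threshold by edgeR or DESeq2 in either line, although LSM2 was lower past it when the EW8 groups were fitted alone. To be read beside this are the shares of all genes past both thresholds given for CCR4-NOT.

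Among 20 other RNA-binding proteins that act on AU-rich elements or decay, 11 were higher and 7 lower in EW8. TC71 had 3 of these genes higher and 5 lower. Past the fold threshold in EW8 were 4 of the 20, against 13.9% of all genes higher that way. They were CPEB genes, whose proteins bind cytoplasmic polyadenylation elements and regulate tail length. In EW8, CPEB4 had 268, 167 and 349 counts in the 0 h libraries and 517, 639 and 638 in the 48 h libraries, a log2 fold change of 1.50 (SE 0.08, edgeR adjusted p = 2.33e-17). CPEB3 changed by 1.32 (SE 0.11) and CPEB2 by 1.02 (SE 0.05). The fourth, CPEB1, named after its values were seen, had 6, 6 and 6 counts before and 11, 8 and 13 after doxycycline removal, a log2 fold change of 1.11 (SE 0.43, edgeR adjusted p = 0.0236). It was not tested when at least 10 counts were asked of every library, and with the EW8 groups alone the threshold was passed by CPEB3 and CPEB4 only. In TC71, 3 of the 4 CPEB genes rose, by at most 0.67 (CPEB3, SE 0.10).

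Of 15 genes for p38 kinases, their upstream and substrate kinases and 14-3-3 proteins, 12 were lower and 3 higher in EW8. Of all genes, 31.6% were lower and 37.0% higher there. TC71 had 8 lower and 2 higher, against 19.2% and 22.9% of all genes. All 6 tested YWHA genes, which encode the 14-3-3 proteins that hold phosphorylated ZFP36 proteins, fell in EW8, with log2 fold changes from -0.98 to -0.19. In TC71, 5 of the 6 fell. The YWHA genes are a part of this list and were not a list of their own. In the EW8 libraries, YWHAE had 12798, 9203 and 18143 counts before and 5060, 5662 and 5668 counts after doxycycline removal, a log2 fold change of -0.98 (SE 0.04, edgeR adjusted p = 3.01e-22). In TC71, its log2 fold change was -0.38 (SE 0.04, edgeR adjusted p = 1.25e-10). The upstream kinases went apart, with MAP2K3 at 0.98 (SE 0.08) and MAP2K6 at -0.80 (SE 0.07) in EW8. For the 7 tested BTG and TOB partner genes, 2 rose and 5 fell in EW8. HOXB9, a BTG2 partner, rose by 1.06 (SE 0.08) in EW8 and fell by 0.20 (SE 0.06) in TC71. PRMT1, the arginine methyltransferase that BTG1 and BTG2 bind, changed by -0.60 (SE 0.04) in EW8 and -0.27 (SE 0.04) in TC71.

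**Figure D4:**
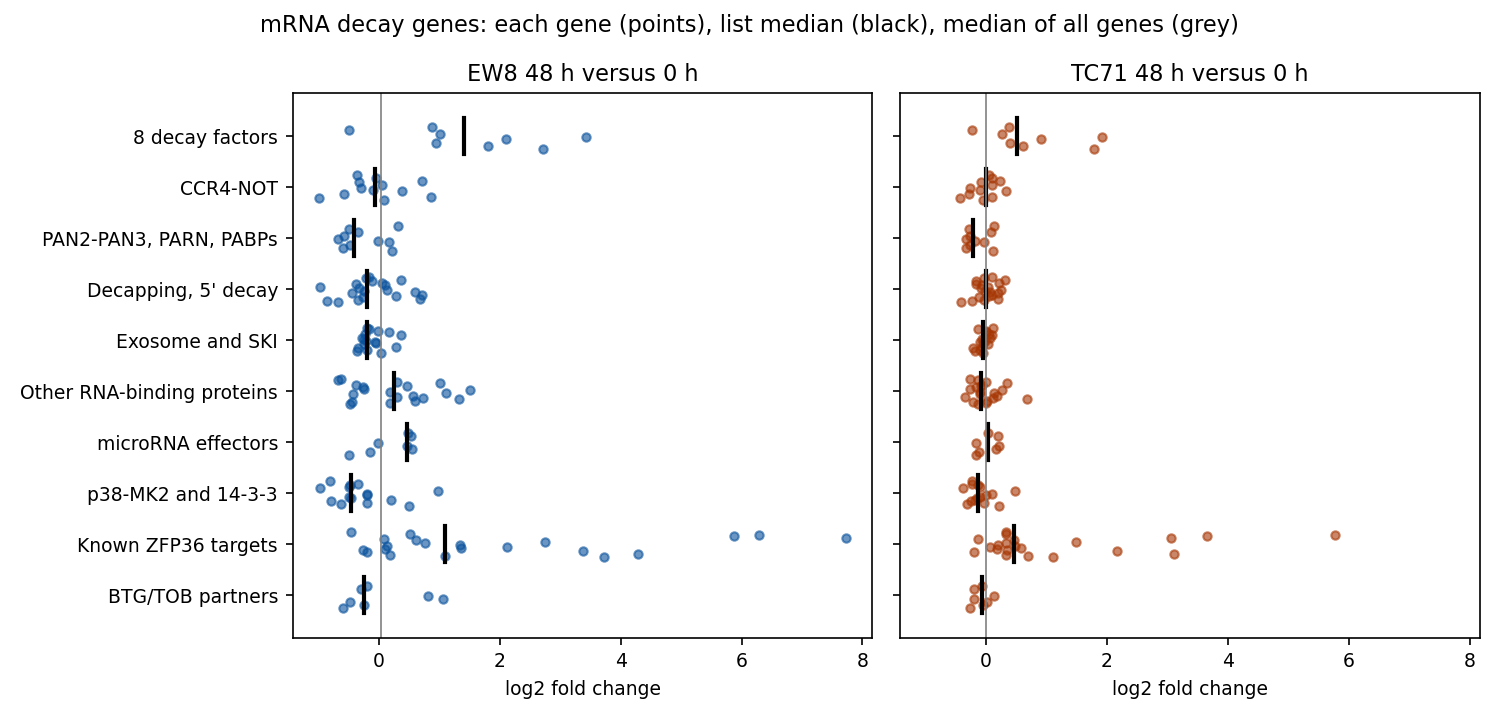
Log2 fold change at 48 h over 0 h in EW8 and TC71 of the 8 decay factors and of each tested gene in 9 lists of mRNA decay genes, with the list median in black and the median of all genes in grey. In EW8, the decay factors (median 1.41), the known ZFP36 targets (1.09), the microRNA effectors (0.46) and the other RNA-binding proteins (0.24) have medians to the right of the all-gene line, and the other lists have medians to its left.

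Of 36 genes known as AU-rich targets of ZFP36 proteins, 23 were in the table and 21 passed the filter on low counts. In the 0 h libraries, 5 of the 21 averaged under 10 counts in EW8 and 3 did in TC71, so that they could enter through libraries where they were higher. Of the 21, 16 were higher and 2 lower in EW8, where 37.0% of all genes were higher. TC71 had 14 higher and 1 lower, against 22.9% of all genes higher. The 2 that were lower in EW8, named after their values were seen, were PIM1 (-0.46) and BCL2 (-0.27). Past the fold threshold were 11 in EW8 and 6 in TC71, all upward, against 13.9% and 3.26% of all genes, with median log2 fold changes of 1.09 and 0.46. With at least 10 counts in every library, 14 of the targets were left, of which 5 in EW8 and 3 in TC71 were higher past both thresholds, against 9.11% and 1.49% of all genes under that filter. Their median log2 fold change was then 0.34 in each line. The list is not independent evidence, because the rise of several of these genes in these libraries was known when it was written. FOS, an AP-1 subunit, had 23, 21 and 42 counts in the 0 h libraries of EW8 and 1673, 1866 and 1949 in the 48 h libraries, a log2 fold change of 6.29 (SE 0.11, edgeR adjusted p = 6.50e-31). The TC71 libraries had 22, 24 and 17 FOS counts with doxycycline and 1243, 1177 and 1751 without it, a log2 fold change of 5.77 (SE 0.12, edgeR adjusted p = 1.24e-27). PTGS2, the inducible cyclooxygenase, rose by 4.28 (SE 0.11) in EW8 and by 3.11 (SE 0.21) in TC71, there from 11, 9 and 11 counts at 0 h. IER3, an immediate early gene, rose by 3.38 (SE 0.12) in EW8 and 2.17 (SE 0.12) in TC71. DUSP1, the phosphatase that inactivates p38, rose by 2.75 (SE 0.07) in EW8 and by 1.48 (SE 0.08) in TC71.

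Of these 21 targets, 16 hold the nonamer in their canonical 3′ untranslated region. The sites in FOS, PTGS2 and DUSP1, which rose, are printed for comparison with those of the ZFP36 family, again with the nonamer in capitals. PIM1 and BCL2, the 2 targets that were lower in EW8, also hold it, with 3 and 1 copies that are not printed. IER3 holds none.

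FOS: tgtttttaatTTATTTATTaagatggatt

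PTGS2: atgatcatatTTATTTATTtatatgaacc

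DUSP1, first site: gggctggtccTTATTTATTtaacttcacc

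DUSP1, second site: agaatataccTTATTTATTtttgtgtagg

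In GRCh38, they lie at chr14:75282070-75282078 (+ strand), chr1:186674327-186674335 (− strand), chr5:172768653-172768661 (− strand) and chr5:172768385-172768393 (− strand).

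Across all 12820 genes tested with an annotated 3′ untranslated region, genes with the nonamer had a median log2 fold change of 0.13 in EW8, against 0.03 for those without it. In TC71, the medians were 0.03 and 0.02, and 3.0% and 3.1% of these genes were higher past both thresholds. Nonamers are more frequent in longer regions, so genes were split into 3 bins of equal size by length, at 742 and 2154 bases. In the short bin, which holds ZFP36, the 94 genes with the nonamer had a median log2 fold change of 0.39 in EW8 and 0.14 in TC71, against 0.02 in both lines for the 4180 without it. Past both thresholds upward in EW8 were 28.7% of the former and 13.4% of the latter. In the middle bin, which holds ZFP36L1 and ZFP36L2, the shares were 17.7% and 13.0%. In the long bin, they were 10.9% and 11.3%, with no excess of genes holding the nonamer. The corresponding shares in TC71 were 7.4% and 3.3% in the short bin, 5.2% and 3.3% in the middle bin and 1.6% and 2.6% in the long bin. These are descriptions across genes, which are not independent replicates. The genes with the nonamer include the ZFP36 family itself and targets named above, such as FOS and DUSP1. Genes with few counts at 0 h could enter through the 48 h libraries. The filter of at least 10 counts in every library was not applied to these shares. ZFP36L2, which holds the nonamer as its paralogs do, fell, so the motif did not separate the members by direction.

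**Figure D5:**
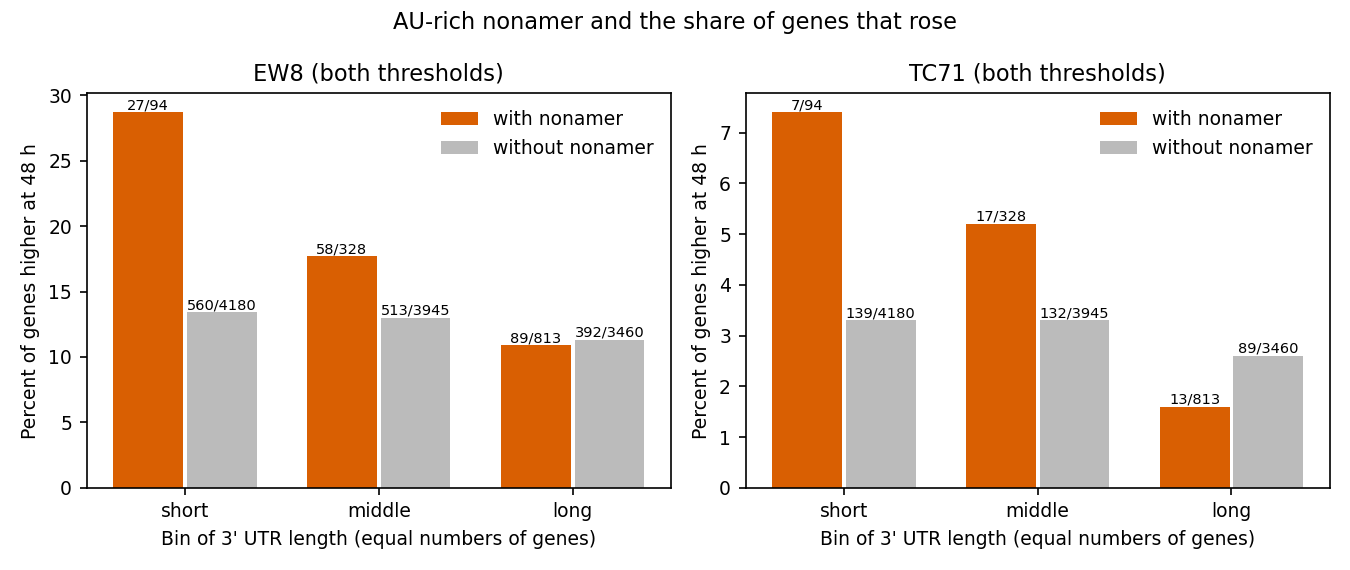
Percent of genes higher at 48 h past both thresholds (adjusted p below 0.05 and fold above 2), with and without the AU-rich nonamer, in bins of 3′ untranslated region length, with gene counts above the bars and a separate axis for each line. In EW8, the share with the nonamer is 28.7% in the short bin and 10.9% in the long bin, where it meets the 11.3% of genes without it.

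The promoters of the members were searched for AP-1, CRE, CArG, SP1 and p53 motifs on both strands. RefSeq promoters of GRCh38.p14, from 250 bases before to 50 after the start site, were matched for 7 of the 8 members, with 9 promoters in all. ZFP36L2 had no promoter to search. A CRE, the TGACGTCA motif bound by CREB and ATF proteins, was found in 1 of them, at the second start site of ZFP36L1. It lies at chr14:68793461-68793468 (− strand), 52 bases before that start site. It is printed because it was the only match to a stimulus-responsive motif in the promoters searched. The site is also inside the gene, and an exon of 1 of the 6 annotated ZFP36L1 transcripts lies over it.

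ZFP36L1, second start site: gtggaatgagTGACGTCAcagccgcgct

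Of 35116 promoters in the table, 1.85% hold this motif. None of the member promoters searched held the AP-1 motif TGANTCA, which 7.71% of all promoters hold. Nor did they hold the CArG box or the full p53 element, which 1.29% and 0.0171% hold. The SP1 motif GGGCGG, present in 45.0% of all promoters, was found in 6 members, namely ZFP36, BTG1, BTG2, BTG3, TOB1 and TOB2. No match says only that these letters are not in this window.

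Genes with the most similar pattern over the 12 libraries were found by the root-mean-square difference of log2 CPM, each gene centred on its own mean. For BTG2, the nearest gene was CDKN1A, which encodes the cell-cycle inhibitor p21, at a difference of 0.10, and the second was SGMS2 (0.16). CDKN1A changed by 3.40 in EW8 and 2.05 in TC71, beside 3.43 and 1.92 for BTG2. The nearest genes of ZFP36 were MT-TP (0.19) and ANK1 (0.20), and those of ZFP36L1 were FRG2FP (0.09) and GRM2 (0.11). BTG1 was closest to OTUD1 (0.09), which changed by 1.63 in EW8 and 0.62 in TC71, and then to C1orf226 (0.10). TOB2 was closest to GABARAPL1 (0.05), an autophagy gene, and YY1AP1 (0.06), and ZFP36L2 to B4GALT5 and SMARCD1 (0.04 each). LRATD2 (0.03) and NEK1 (0.05) were nearest to BTG3, and CNTRL and NEK1 (0.07 each) to TOB1. BTG3 and TOB1 were each other's nearest member, at 0.08. ZFP36L2 stood farthest from the other members, at 0.53 from BTG3.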

How the data were processed

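Poly(A) RNA from 12 libraries was sequenced as paired-end reads of 100 bp. Per the labels and the study's methods, reads were checked with FastQC and mapped to hg38 with STAR. The counting tool, its strand setting and its annotation are not given in the sources used here. The deposited values are raw counts per gene without normalization, and 0 columns of sample values were left unmapped. The main test was the quasi-likelihood test of edgeR 4.0.16 on these counts, run in R 4.3.3 (filterByExpr with a minimum count of 10 and a minimum total of 15, TMM, robust quasi-likelihood fit over the 4 groups, Benjamini-Hochberg adjustment over 16515 genes). CPM were scaled with TMM factors. The thresholds were an adjusted p of 0.05 and a fold of 2. Standard errors were derived from the log2 fold change and its F statistic. Nothing in the labels says that replicates came from separate cultures, so p-values measure the spread between these libraries, which may be technical. Replicates of a group differed by more than sampling noise (chi-square per gene 2.05 to 9.48). Replicate numbers did not pair the libraries.

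Members and gene lists were chosen with earlier results of these data known. Named list genes were, per list and line, up to 3 with the largest log2 fold change among those with an adjusted p below 0.05, no overlap between groups and at least 20 counts on average in the lower group. For each member, the 2 genes nearest in pattern were named. Transcripts, coordinates and 3′ untranslated regions came from GENCODE 44 and promoters from RefSeq. A planned comparison of the proteins was not made, as no protein sequences were used here. In simulated EW8 data with 200 changed genes, the test recovered 92.9% of them. This describes the simulation only, and the share of changes recovered in the real libraries was not tested. Alternatives were DESeq2 1.42.0 with its size factors, total-count scaling, other count filters, other thresholds, fits of the compared groups alone, a replicate block and each library left out. Figures were drawn with matplotlib 3.10.9.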

Additional observations from a re-analysis of the deposited data

Results flagged for a closer look

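All 8 genes were picked out because their 48 h response differed between EW8 and TC71 by the test of the difference itself, an interaction term in the edgeR fit. The difference of the log2 fold changes, EW8 minus TC71, was 1.51 for BTG2, 1.20 for ZFP36L1, 1.19 for BTG1, 0.93 for ZFP36, 0.76 for TOB2, 0.55 for TOB1, 0.51 for BTG3 and -0.26 for ZFP36L2. The adjusted p ranged from 5.86e-15 for ZFP36L1 to 0.00341 for ZFP36L2. Of all genes tested, 25.7% were called with a positive difference and 22.4% with a negative one.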

How the results depend on the processing

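Of 456 recomputed log2 fold changes of the members, 449 kept their direction and their side of the adjusted p threshold alone, 4 were no longer called by it, 2 were newly called and 1 reversed. The 7 that changed in this sense were baseline differences between the lines. They comprise the ZFP36L1 values without single libraries given above, BTG3 under total-count scaling (0.03, adjusted p = 0.626), BTG1 under the same scaling, which was not called in either case (-0.04, adjusted p = 0.588, against 0.10), and TOB1 without the second EW8 library (0.22, adjusted p = 0.0245) or the second TC71 library (0.20, adjusted p = 0.0453). The fold threshold was crossed in 10 further cases (5 gained and 5 lost), all among the 48 h responses and their difference. Without a fold threshold, 8 members were called in EW8, 8 in TC71, 8 in the difference of responses and 6 at baseline, against 5, 2, 3 and 0. Leaving out 1 library gave 4 to 5 members in EW8, 2 in TC71, 3 to 4 in the difference and 0 at baseline. ZFP36 joined the difference without the second 48 h library of EW8 or the third 48 h library of TC71. Total-count scaling moved the median of all genes by 0.13 in EW8, and 7 members then passed in EW8, with BTG3 and TOB1 added, and 4 in the difference, with ZFP36 added. Fitting the EW8 groups alone left 4, without TOB2.

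With at least 10 counts in every library, the median log2 fold change of the known ZFP36 targets in EW8 was 0.34, against 1.09, and 10 genes of the decay lists passed in EW8 and 3 in TC71, against 16 and 6. Over all genes, this filter left 1204 higher and 306 lower calls in EW8 and 197 and 36 in TC71, against 2294 and 554, and 539 and 141. It left 634 and 98 calls in the difference and 389 and 979 at baseline, against 1202 and 162, and 787 and 1964, because genes near 0 in 1 group could not pass it. Total-count scaling gave 345 lower calls in EW8, against 554. Same-numbered libraries deviated together weakly (r from -0.14 to 0.11 over 18 pairs, 1 above 0.1), and the replicate block left 5, 2, 3 and 0 members called. Low counts limit the precision for ZFP36 at 0 h.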
